A study of Homo sapiens with 6 samples.

Results

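The replication-dependent histone genes are the genes that encode the core histones H2A, H2B, H3 and H4 and the linker histone H1 for chromatin made in S phase. Members were all gene IDs in the authors' deposited table whose symbol begins with HIST1H, HIST2H, HIST3H or HIST4H, without regard to any measured value, which gave 106 of 63677 gene IDs. The 106 IDs carry 89 symbols, and 23 of them are pseudogenes by their GENCODE 29 type. RNA came from KMS27, an established human line of malignant plasma cells. Of 6 libraries, 3 came from cells whose treatment label is HA-TAZ, that is TAZ (the Hippo pathway coactivator encoded by WWTR1) with a peptide tag, and are called HA-TAZ 1, 2 and 3. The other 3 have the treatment label wild type and are called control a, b and c. Their columns bear another name and were placed in this group by elimination, so that which column is which wild type sample is unknown. The titles of the wild type samples also carry HA, and whether they received a construct, what drives the HA-TAZ construct, and whether the cells are clones or pools are not given in the sources used here. Libraries were prepared in triplicate per the labels' protocols, and nothing says that the 3 of a group came from separate cultures, so p-values measure only the spread between these libraries, which may be technical.

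Histone mRNAs of this class differ from other mRNAs in having no introns as a rule and no poly(A) tail. Each ends shortly after a conserved stem-loop, which stem-loop binding protein (SLBP) holds from processing to translation, and the mRNA is degraded when DNA replication stops. Their transcription is driven by NPAT, a substrate of cyclin E and CDK2 that gathers at the histone gene clusters. RNA selected for poly(A) misses most of these mRNAs, whereas here total RNA was sequenced after removal of ribosomal RNA.

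Histone mRNA was abundant in all 6 libraries, and the summed level of none of the 5 families differed in the same direction on both scales used here. As a share of each library, all members together were lower in HA-TAZ libraries. After each library was rescaled to its typical gene, 69 of 81 tested members had a positive fold change, against 31 of 81 before. The groups were apart in the same direction on both scales for 6 members, and in opposite directions for 5. These joint counts were not made for all genes. Before rescaling 3.70% of tested members were apart and higher and 37.0% apart and lower, against 4.41% and 43.6% of all genes. After rescaling it was 30.9% and 3.70%, against 20.2% and 18.3%. HIST3H2A, HIST3H2BB and the pseudogene HIST1H3PS1 were higher in every HA-TAZ library than in any control, and HIST1H2BM, HIST1H3J and the pseudogene HIST1H2APS3 were lower.

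WWTR1 was checked first. Its level was 293, 306 and 293 TPM in the 3 HA-TAZ libraries, and in control a, b and c it was 2.69, 2.22 and 1.69 TPM. TPM is an abundance corrected for transcript length, as a share of all transcripts in a library. The log2 fold change was 6.80 ± 0.09 (SE, limma with Benjamini-Hochberg adjustment, adjusted p = 1.1e-05), and the libraries matched their labels. All 8 plasma cell markers examined were at a mean of at least 1 TPM, and summed to 550 to 599 TPM in HA-TAZ and 653 to 743 TPM in control libraries. Markers of T cells summed to 0.0476 to 0.167 TPM in HA-TAZ and 0.386 to 0.559 TPM in control libraries, monocyte markers to 1.68 to 1.93 and 1.91 to 2.20 TPM, and fibroblast markers to 3.18 to 4.001 and 3.78 to 4.89 TPM. Epithelial markers summed to 1.91 to 2.99 and 3.69 to 4.80 TPM, endothelial markers to 1.69 to 2.25 and 2.73 to 4.12 TPM, and erythroid markers to 1.11 to 2.20 and 0.798 to 1.45 TPM. No marker was listed at 0 in all libraries, and the part of other cells in the results was not tested.

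Values are given on a pair of scales, because the direction of most members depended on it. The first is TPM as deposited. The second, scaled TPM, is TPM divided by a median-of-ratios factor of its library, which was 0.866, 0.967 and 0.890 for HA-TAZ 1, 2 and 3 and 1.21, 1.09 and 1.06 for control a, b and c. Every HA-TAZ factor was below every control factor, so scaling raised HA-TAZ values against controls. Across the 22651 tested genes, the log2 fold change had a median of −0.03 with scaled TPM and of −0.27 with TPM as deposited. For the 81 tested members it was 0.21 and −0.09, and it was 0.14 with scaled TPM when control a was left out and 0.32 when control c was left out. Over the 11633 protein-coding genes outside the members, the median was 0.06 with scaled TPM. Of all genes called by the test described below, 64.0% were higher with scaled TPM, 7.84% with TPM as deposited and 43.5% with factors from protein-coding genes outside the members.

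Together the members took 1.67, 1.66 and 1.64% of all TPM in HA-TAZ 1, 2 and 3 and 1.71, 1.76 and 1.85% in control a, b and c. The means were 1.66 ± 0.0176% and 1.77 ± 0.0702% (SD, n = 3 each), and the groups did not overlap. As a share of protein-coding TPM the means were 3.68 ± 0.201% and 3.49 ± 0.390% (SD, n = 3 each), in the other order and with overlap. The summed scaled TPM was 19319, 17143 and 18401 in HA-TAZ 1, 2 and 3 and 14142, 16178 and 17490 in control a, b and c, and the groups overlapped. Control a was the lowest library for 64 of the 81 tested members (79.0%) with scaled TPM, against 25.2% of all tested genes. In bulk RNA, a change in the number of cells in S phase and a change in histone mRNA per cell cannot be told apart.

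**Figure D1:**
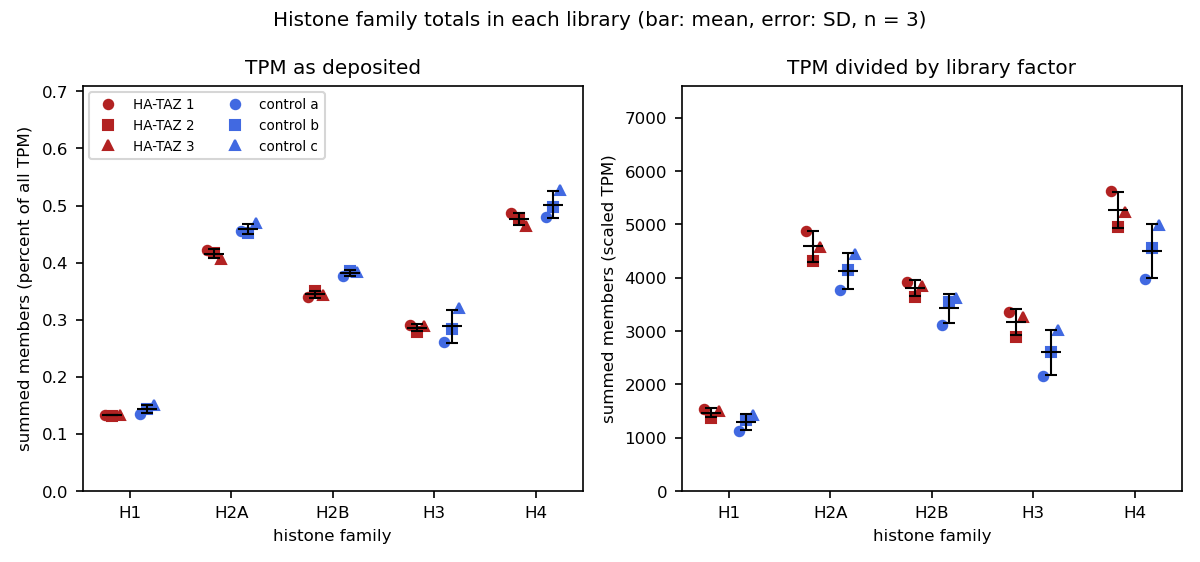
Summed level of the H1, H2A, H2B, H3 and H4 members in each library, as a percent of all TPM as deposited (left) and as summed scaled TPM (right), with red for HA-TAZ, blue for control, and the bar and error giving the mean and SD of 3 libraries. On the left the H1, H2A and H2B totals of the HA-TAZ libraries lie below all controls. On the right all 5 family means are higher in HA-TAZ and control a is the lowest library in each family. Only the H2B totals of the HA-TAZ libraries lie above all controls there, opposite to the left.

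The 5 families were present in proportions that differed little between groups. The H4 members made up 28.8 ± 0.369% of histone TPM in HA-TAZ and 28.2 ± 0.213% in control libraries (SD, n = 3 each), with overlap. The H2A members made up 25.3, 25.1 and 24.9% in HA-TAZ 1, 2 and 3 and 26.7, 25.6 and 25.4% in control a, b and c, lower without overlap by under 2 percentage points. H2B took 20.8 ± 0.468% and 21.5 ± 0.717%, H3 took 17.3 ± 0.425% and 16.2 ± 0.997%, and the linker histone H1 took 8.03 ± 0.0992% and 8.08 ± 0.136% (SD, n = 3 each, with overlap in all 3 families). These shares do not depend on the library factor.

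By the authors' symbols, 69 IDs belong to HIST1, the large cluster on chromosome 6, and 32 to HIST2 on chromosome 1, but 2 H4 IDs listed as HIST1H4A are HIST2 genes in GENCODE 29. With these placed by GENCODE 29, the 67 IDs of HIST1 took 79.4, 79.7 and 78.6% of histone TPM in HA-TAZ 1, 2 and 3 and 78.6, 79.3 and 78.8% in control a, b and c. The 34 IDs of HIST2 took 19.9, 19.7 and 20.6% in HA-TAZ and 20.9, 20.1 and 20.6% in control libraries. The groups overlapped in both clusters. By the authors' symbols they were apart, at 84.8 ± 0.198% and 84.2 ± 0.445% for HIST1 and 14.5 ± 0.141% and 15.3 ± 0.491% for HIST2 (SD, n = 3 each), so that separation depended on where the 2 H4 IDs were counted. HIST3, also on chromosome 1 and with 4 IDs, took 0.354, 0.335 and 0.415% in HA-TAZ and 0.227, 0.256 and 0.282% in control libraries, higher without overlap. HIST4H4 on chromosome 12 took 0.339, 0.300 and 0.340% in HA-TAZ and 0.245, 0.261 and 0.295% in control libraries, likewise higher without overlap. Within HIST1, the 25 tested members with a promoter from 26.02 to 26.29 Mb and the 18 from 27.13 to 27.89 Mb of chromosome 6 (GRCh38.p14) had median log2 fold changes of 0.27 and 0.22 with scaled TPM.

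Of the 106 members, 81 passed the filter of a mean of 1 TPM, 18 lay below it, and 7 were listed at 0 in every library. Those at 0 are HIST1H2AA and HIST1H2BA, a pair known from the testis, HIST1H4L, and the pseudogenes HIST1H2APS1, HIST1H2APS2, HIST1H2APS6 and HIST1H2BPS1. HIST1H1T, the linker histone of the testis, and HIST1H1A were listed at under 0.5 TPM in all libraries. The lowest member that passed was HIST1H2BPS2 at a mean of 1.36 TPM, and the highest that did not was HIST1H1PS2 at 0.655 TPM. HIST1H2BPS2 (ENSG00000217646), an H2B pseudogene, was at 2.13, 1.27 and 1.84 TPM in HA-TAZ 1, 2 and 3 and 0.370, 1.23 and 1.34 TPM in control a, b and c, with overlap as deposited, and its scaled log2 difference was 0.65 ± 0.27 (SE, limma, adjusted p = 0.165). In the authors' deposited table the tested members had a median of 4121 estimated counts for their most abundant transcript, and HIST1H2BPS2 had the fewest, 13.0.

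With scaled TPM, limma called 2 of 81 members higher and 0 lower (adjusted p under 0.05). Over all 22651 genes it called 1057 higher (4.67%) and 595 lower (2.63%), so the 2.47% of members called higher were below the share of all genes. At an unadjusted p under 0.05 there were 27 members higher and 2 lower, 35.8% of the tested members against 30.7% of all genes. The groups did not overlap for 25 members that were higher (30.9% against 20.2% of all genes) and 3 that were lower (3.70% against 18.3%). With TPM as deposited, limma called 1 member higher (1.23% against 1.15%) and 17 lower (21.0% against 13.5%), and these 17 IDs have 14 distinct sets of values. On that scale the groups did not overlap for 3 members that were higher (3.70% against 4.41%) and 30 that were lower (37.0% against 43.6%). The members differed in how far apart the groups lay, as the plot of fold changes by member shows.

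**Figure D2:**
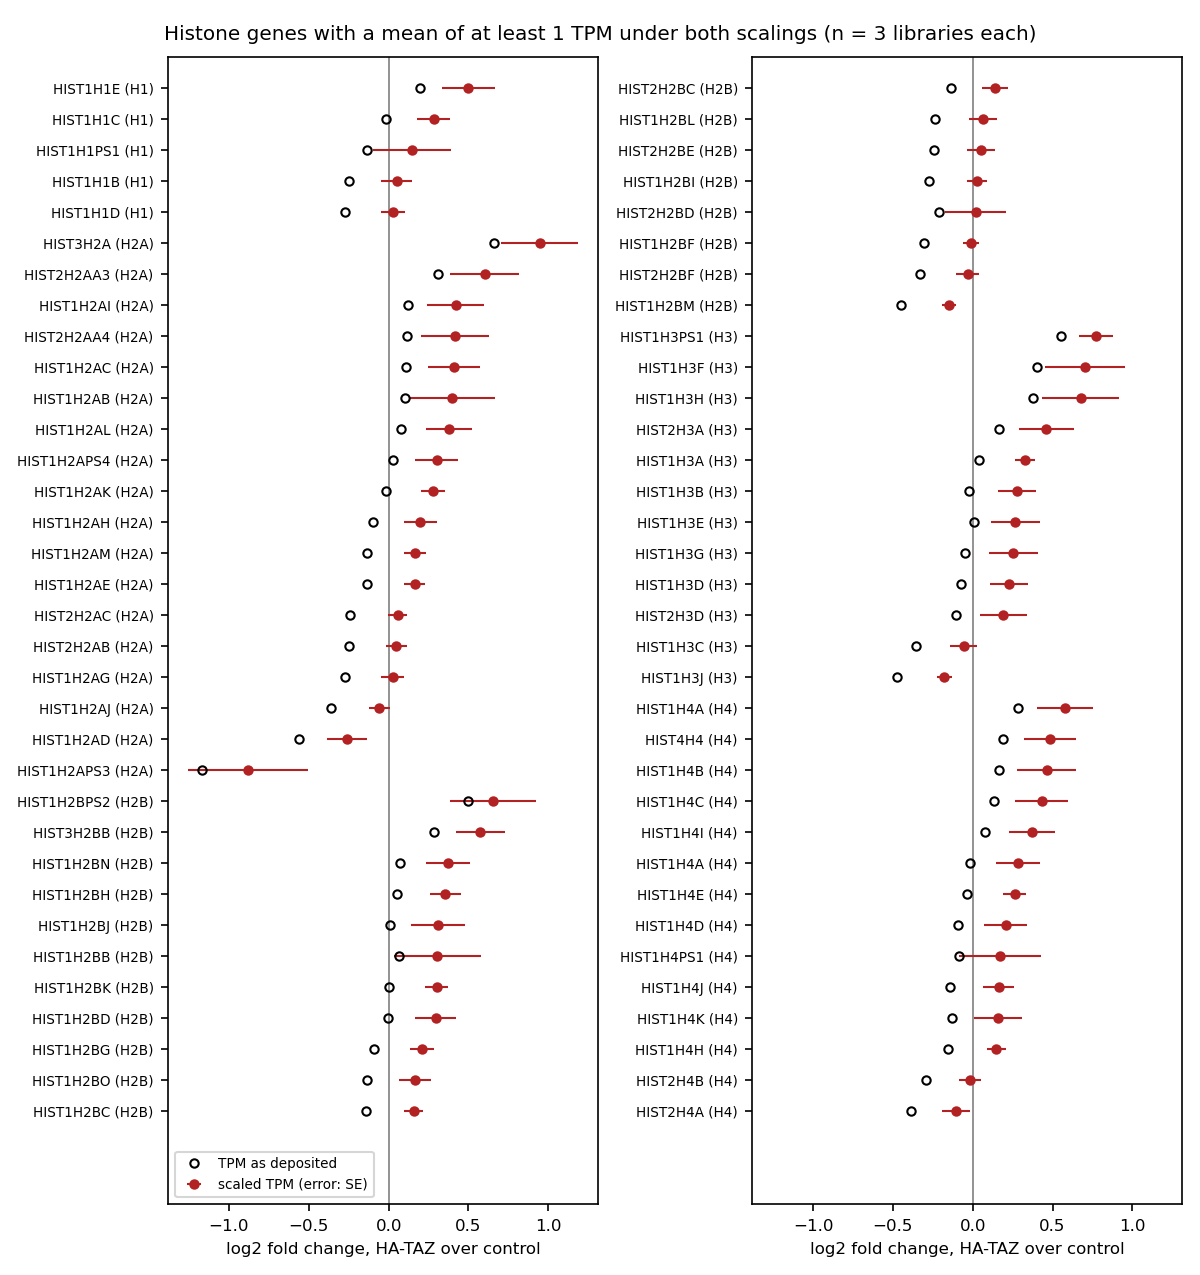
Log2 fold change of HA-TAZ over control for the tested members, grouped by family, with scaled TPM (red, error: SE) and with TPM as deposited (open circles), from 3 libraries a group. IDs with the same 6 values are drawn once and an H2A copy (HIST2H2AA3, ENSG00000272196) whose level is nearly all in control a is left out. Most members lie right of 0 with scaled TPM and on or left of 0 as deposited, while HIST3H2A, HIST1H3PS1 and HIST3H2BB lie to the right and HIST1H2BM, HIST1H3J and HIST1H2APS3 to the left on both.

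Both members called with scaled TPM are of the H3 family. HIST1H3PS1 (ENSG00000220875), an H3 pseudogene, was at 3.31, 3.67 and 3.36 TPM in HA-TAZ 1, 2 and 3 and at 2.42, 2.15 and 1.59 TPM in control a, b and c. It rose by a log2 fold change of 0.77 ± 0.11 (SE, limma with Benjamini-Hochberg adjustment, adjusted p = 0.0228) with scaled TPM and was also called as deposited (0.55 ± 0.14, adjusted p = 0.0484). Its groups did not overlap, but its level is among the lowest tested and 67.4% of its 31-base words are found in no other gene. HIST1H3A (ENSG00000198366), an H3 gene at the start of the HIST1 cluster, was at 23.0, 23.3 and 21.6 TPM in HA-TAZ and 22.7, 21.6 and 21.7 TPM in control libraries, which overlapped. With scaled TPM it was at 26.6, 24.1 and 24.3 against 18.8, 19.8 and 20.6, higher by a log2 fold change of 0.33 ± 0.06 (SE, limma, adjusted p = 0.0416). As deposited its log2 fold change was 0.04 ± 0.06 (SE, limma, adjusted p = 0.648), so the call was made on the scaled values only. Leaving out any 1 of the 6 libraries ended the call of HIST1H3A, and that of HIST1H3PS1 was kept only without control c.

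HIST3H2A and HIST3H2BB, an H2A and an H2B gene that stand head to head on chromosome 1, were higher in HA-TAZ on both scales, and HIST3H2A had the highest fold change of the 81 members. HIST3H2A (ENSG00000181218) was at 21.9, 22.04 and 25.2 TPM in HA-TAZ 1, 2 and 3 and at 10.5, 14.5 and 18.7 TPM in control a, b and c. Its log2 fold change was 0.95 ± 0.24 with scaled TPM (SE, limma, adjusted p = 0.0688) and 0.66 ± 0.20 as deposited (adjusted p = 0.0659). All HA-TAZ libraries were above all controls, and control a was the lowest. HIST3H2BB (ENSG00000196890) was at 37.0, 33.2 and 42.4 TPM in HA-TAZ against 28.2, 30.5 and 33.2 TPM in control libraries, where HA-TAZ 2 and control c nearly met. The log2 fold change was 0.57 ± 0.15 with scaled TPM (SE, limma, adjusted p = 0.0754) and 0.28 ± 0.11 as deposited (adjusted p = 0.109). Neither passed the threshold, while with genes of at least 5 TPM only, HIST3H2A had an adjusted p of 0.0459 (limma). In the authors' deposited table, whose effect is a natural log with its own scaling, HIST3H2A had 0.696 ± 0.207 (q = 0.0200) and HIST3H2BB 0.410 ± 0.122 (q = 0.0203).

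The DNA between such genes holds the promoters of both. It is printed from RefSeq (GRCh38.p14) for HIST3H2A and HIST1H2AJ. The HIST3H2A window of 250 bases before to 50 after the start overlaps that of HIST3H2BB. The HIST1H2AJ window overlaps that of HIST1H2BM, and these genes had the lowest fold changes of the 8 pairs compared below. Capitals mark the CCAAT box, the octamer ATTTGCAT bound by OCT1 (POU2F1), the letters TATAAA, and the H1 box AAACACA, each on either strand.
HIST3H2A, chr1:228457824-228458123 (minus strand): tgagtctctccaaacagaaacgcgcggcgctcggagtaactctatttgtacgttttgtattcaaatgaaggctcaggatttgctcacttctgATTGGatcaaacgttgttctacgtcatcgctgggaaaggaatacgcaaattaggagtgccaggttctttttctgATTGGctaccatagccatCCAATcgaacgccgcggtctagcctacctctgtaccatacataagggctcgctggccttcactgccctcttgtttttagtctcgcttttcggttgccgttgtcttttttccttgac
HIST1H2AJ, chr6:27814728-27815027 (minus strand): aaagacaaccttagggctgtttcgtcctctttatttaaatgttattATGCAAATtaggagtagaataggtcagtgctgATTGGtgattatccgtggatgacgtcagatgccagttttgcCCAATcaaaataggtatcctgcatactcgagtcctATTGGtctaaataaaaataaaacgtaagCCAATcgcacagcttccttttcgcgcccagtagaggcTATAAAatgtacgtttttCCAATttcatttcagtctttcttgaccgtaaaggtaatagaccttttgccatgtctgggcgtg

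Of the 8 head-to-head pairs compared below, HIST1H2AJ and HIST1H2BM had the lowest fold changes. HIST1H2BM (ENSG00000196374), an H2B gene, was at 185, 197 and 180 TPM in HA-TAZ 1, 2 and 3 and at 272, 258 and 238 TPM in control a, b and c. Its log2 fold change was −0.15 ± 0.04 with scaled TPM (SE, limma, adjusted p = 0.0918) and −0.45 ± 0.07 as deposited (adjusted p = 0.0286). The groups did not overlap on either scale. HIST1H2AJ (ENSG00000182611), the H2A gene of highest level, was at 481, 486 and 425 TPM in HA-TAZ against 645, 582 and 559 TPM in control libraries, apart as deposited. The log2 fold change was −0.06 ± 0.07 with scaled TPM (SE, limma, adjusted p = 0.583) and −0.36 ± 0.08 as deposited (adjusted p = 0.0444). Only 14.01% of its 31-base words are found in no other gene, so its share of reads from similar H2A genes is an estimate.

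HIST1H3J (ENSG00000197153), an H3 gene in the same part of HIST1, was at 135, 144 and 130 TPM in HA-TAZ 1, 2 and 3 and at 213, 183 and 177 TPM in control a, b and c. Its log2 fold change was −0.18 ± 0.05 with scaled TPM (SE, limma, adjusted p = 0.0688) and −0.48 ± 0.09 as deposited (adjusted p = 0.0337), without overlap on either scale. With factors from protein-coding genes outside the members, HIST1H3J and HIST1H2BM were both called lower, at −0.25 (limma, adjusted p = 0.0358) and −0.22 (adjusted p = 0.0314). HIST1H2APS3 (ENSG00000218281), an H2A pseudogene, was at 22.3, 25.3 and 8.51 TPM in HA-TAZ against 41.8, 40.1 and 36.7 TPM in control libraries, with HA-TAZ 3 far below the rest. The log2 fold change was −0.88 ± 0.38 with scaled TPM (SE, limma, adjusted p = 0.177). HIST1H2AD (ENSG00000196866), an H2A gene, was at 135, 110 and 119 TPM in HA-TAZ against 210, 164 and 166 TPM in control libraries. It was called lower as deposited (−0.56 ± 0.13, limma, adjusted p = 0.0411), and with scaled TPM the groups overlapped (−0.26 ± 0.12, adjusted p = 0.213).

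**Figure D3:**
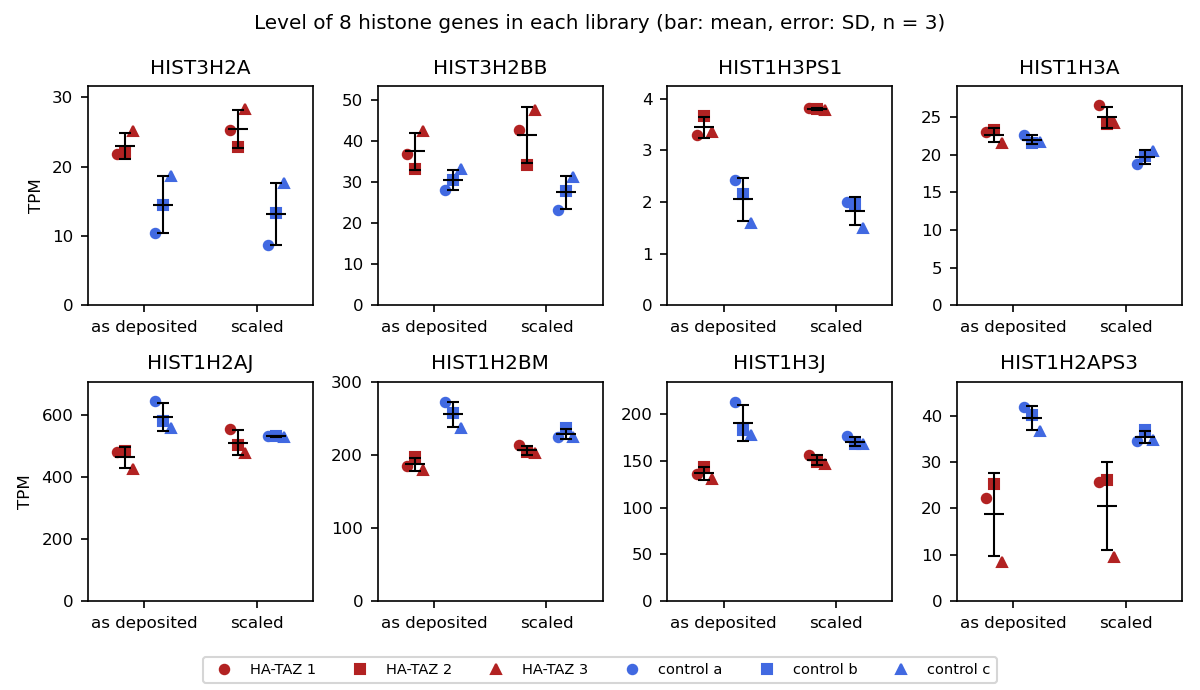
Level in each library of 8 members in TPM as deposited and scaled TPM, with red for HA-TAZ, blue for control, and the bar and error giving the mean and SD of 3 libraries. HIST3H2A, HIST3H2BB and HIST1H3PS1 are higher and HIST1H2BM, HIST1H3J and HIST1H2APS3 lower in HA-TAZ on both scales, HIST1H3A separates only when scaled and HIST1H2AJ only as deposited.

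The linker histone genes HIST1H1B to HIST1H1E compact the fibre between nucleosomes. HIST1H1C (ENSG00000187837) was at 500, 506 and 491 TPM in HA-TAZ 1, 2 and 3 and at 472, 516 and 529 TPM in control a, b and c, with overlap. Its log2 fold change was 0.28 ± 0.10 with scaled TPM (SE, limma, adjusted p = 0.133) and −0.02 as deposited. HIST1H1B (ENSG00000184357) was at 453, 441 and 442 TPM in HA-TAZ against 506, 535 and 550 TPM in control libraries. It was called lower as deposited (−0.25 ± 0.06, SE, limma, adjusted p = 0.0400) and was at 0.05 ± 0.10 with scaled TPM (adjusted p = 0.762). The 5 tested H1 members, 1 of them a pseudogene, had scaled log2 fold changes from 0.03 to 0.50 with a median of 0.15. As deposited 0 were higher and 2 lower without overlap, with a median of −0.13. On that scale 4.41% of all genes were higher and 43.6% lower without overlap. The promoter of HIST1H1C carries the H1 box of this family on both strands.
HIST1H1C, chr6:26056421-26056720 (minus strand): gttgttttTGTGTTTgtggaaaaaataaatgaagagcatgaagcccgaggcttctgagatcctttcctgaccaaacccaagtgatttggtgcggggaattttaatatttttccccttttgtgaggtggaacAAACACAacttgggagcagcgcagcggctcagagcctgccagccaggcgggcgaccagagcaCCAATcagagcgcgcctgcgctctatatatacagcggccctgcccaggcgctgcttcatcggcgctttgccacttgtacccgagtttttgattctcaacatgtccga

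Among the H2A genes, HIST1H2AI (ENSG00000196747) was second in scaled level, at 415, 392 and 413 TPM in HA-TAZ 1, 2 and 3 and at 315, 376 and 442 TPM in control a, b and c. The control libraries spread on both sides of the HA-TAZ libraries, and the log2 fold change with scaled TPM was 0.42 ± 0.18 (SE, limma, adjusted p = 0.174). Of 22 tested H2A members, 18 had a positive fold change with scaled TPM, 7 were higher without overlap and 1 was lower without overlap, while as deposited 1 was higher and 11 were lower (median −0.12). The H2B gene of highest level, HIST1H2BC (ENSG00000180596), was at 609, 630 and 599 TPM in HA-TAZ against 699, 661 and 671 TPM in control libraries. Its groups were apart on both scales but in opposite directions, lower as deposited (−0.14 ± 0.05) and higher with scaled TPM (0.16 ± 0.06, SE, limma, adjusted p = 0.135). HIST1H2BK (ENSG00000197903), the next, was at 333, 351 and 336 TPM in HA-TAZ against 334, 354 and 331 TPM in control libraries. These were level as deposited, and with scaled TPM the log2 fold change was 0.30 ± 0.07 (SE, limma, adjusted p = 0.0597). Of 23 tested H2B members, 19 had a positive fold change with scaled TPM, 9 were higher and 1 was lower without overlap. As deposited 1 was higher and 11 were lower (median −0.14). Of all genes, 20.2% were higher and 18.3% lower without overlap with scaled TPM, and 4.41% and 43.6% as deposited.

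Among the H3 genes, HIST1H3B (ENSG00000124693) was at 792, 763 and 776 TPM in HA-TAZ 1, 2 and 3 and at 747, 756 and 869 TPM in control a, b and c. HIST1H3G (ENSG00000256018) was at 578, 553 and 532 TPM and at 495, 587 and 644 TPM. In both genes the HA-TAZ libraries lay within the spread of the controls as deposited, with scaled log2 fold changes of 0.28 ± 0.12 and 0.25 ± 0.15 (SE, limma, adjusted p = 0.176 and 0.316). HIST1H3F (ENSG00000256316) was at 203, 187 and 235 TPM in HA-TAZ against 119, 162 and 198 TPM in control libraries. HIST1H3H (ENSG00000203813) was at 258, 244 and 292 TPM and at 157, 207 and 259 TPM. Both were higher without overlap with scaled TPM, with log2 fold changes of 0.70 ± 0.25 and 0.68 ± 0.24 (SE, limma, adjusted p = 0.126 each), and control a was the lowest library in each. Of 16 tested H3 members, 14 had a positive fold change with scaled TPM, 4 were higher and 1 was lower without overlap. As deposited 1 was higher and 2 were lower (median 0.02). The shares of all genes were 20.2% and 18.3% with scaled TPM, and 4.41% and 43.6% as deposited. The promoter of HIST1H3A is printed because it is the member that is no pseudogene and was called with scaled TPM.
HIST1H3A, chr6:26020201-26020500 (plus strand): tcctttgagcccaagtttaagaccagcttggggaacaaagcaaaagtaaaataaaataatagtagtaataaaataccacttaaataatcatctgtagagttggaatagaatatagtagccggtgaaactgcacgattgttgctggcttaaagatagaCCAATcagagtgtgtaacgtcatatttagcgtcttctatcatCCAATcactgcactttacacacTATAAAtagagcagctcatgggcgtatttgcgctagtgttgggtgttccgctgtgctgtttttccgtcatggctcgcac

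HIST1H4J (ENSG00000197238), an H4 gene, had the highest level of all members, at 2234, 2206 and 1946 TPM in HA-TAZ 1, 2 and 3 and at 2320, 2370 and 2334 TPM in control a, b and c. It was lower without overlap as deposited (−0.14 ± 0.08, SE, limma, adjusted p = 0.202) and overlapped with scaled TPM (0.16 ± 0.10, adjusted p = 0.311). Only 17.8% of its 31-base words are found in no other gene. HIST1H4H (ENSG00000158406) was at 516, 529 and 503 TPM in HA-TAZ against 586, 572 and 564 TPM in control libraries. The log2 fold change was 0.15 ± 0.06 with scaled TPM (SE, limma, adjusted p = 0.167) and −0.15 ± 0.05 as deposited, again without overlap in opposite directions. Of 15 tested H4 members, 13 had a positive fold change with scaled TPM, 3 were higher and 0 lower without overlap. As deposited 0 were higher and 4 lower (median −0.03). The shares of all genes were 20.2% and 18.3% with scaled TPM, and 4.41% and 43.6% as deposited. The promoter of HIST1H4J has the letters TATAAA and no CCAAT box in this window.
HIST1H4J, chr6:27823842-27824141 (plus strand): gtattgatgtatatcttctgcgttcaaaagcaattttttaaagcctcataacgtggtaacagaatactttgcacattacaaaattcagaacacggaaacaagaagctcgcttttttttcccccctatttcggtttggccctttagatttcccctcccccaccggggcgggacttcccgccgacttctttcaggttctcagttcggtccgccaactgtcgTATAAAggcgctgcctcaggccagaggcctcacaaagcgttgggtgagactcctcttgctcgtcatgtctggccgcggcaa

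Promoters of the families carry different motifs. RefSeq promoters matched 74 member IDs and gave 66 windows, which were compared with all 35116 promoters of the same length. HIST1H2BD, HIST1H2BK, HIST1H3D and HIST1H3E each have several windows, so the counts are of windows and not of genes. The windows of HIST1H2BD, and those of HIST1H2BK, nearly coincide. A HIST1H3D window is the same as that of HIST1H2AD and holds the only octamer among H3 windows. The windows of head-to-head H2A and H2B genes cover largely the same DNA, searched on both strands. A site there can therefore be counted in both families, as with the octamer of HIST1H2AJ and HIST1H2BM, and the H2A and H2B counts are not separate. The octamer ATTTGCAT was in 11 of 16 H2A and 11 of 16 H2B promoters, in 34.8% of all member promoters and in 1.77% of all promoters. CCAAT was in every H1, H2A, H2B and H3 promoter and in 3 of 13 H4 promoters, 84.8% of members against 34.6% of all. TATAAA was in 68.2% of member promoters and 11.5% of all. The H1 box AAACACA was in 6 of 6 H1 promoters and in 13.6% of member promoters, against 5.64% of all. The letters GGAATG, the core of sites for TEAD factors with which TAZ binds DNA, were in 7.58% of member promoters and 14.03% of all. None of these motifs contains another, a match is a description of the sequence, and no binding was measured. The HIST3H2A window has CCAAT boxes but no exact octamer, while that of HIST1H2AJ has both. The octamer in the HIST1H2AJ window lies nearer the start of HIST1H2BM than that of HIST1H2AJ.

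Of 9 head-to-head pairs of an H2A and an H2B gene with starts 194 to 248 bases apart, 8 had both genes tested. Pairs were sought only among members with a matched RefSeq promoter. HIST1H2AH, HIST1H2BF and HIST1H2BG had none, so any pair with them is missing here. With scaled TPM both genes were above 0 in 7 pairs and both below 0 in 1, HIST1H2AJ and HIST1H2BM. With TPM as deposited both were above 0 in 1 pair, HIST3H2A and HIST3H2BB, and both below 0 in 3. The genes of a pair did not always lie close. HIST2H2AC and HIST2H2BE had scaled log2 fold changes of 0.06 ± 0.06 and 0.05 ± 0.09 (SE), while HIST1H2AI and HIST1H2BL had 0.42 ± 0.18 and 0.06 ± 0.09 (SE). Levels within a pair differed too, with mean TPM of 299.6 for HIST2H2AC and 35.5 for HIST2H2BE.

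**Figure D4:**
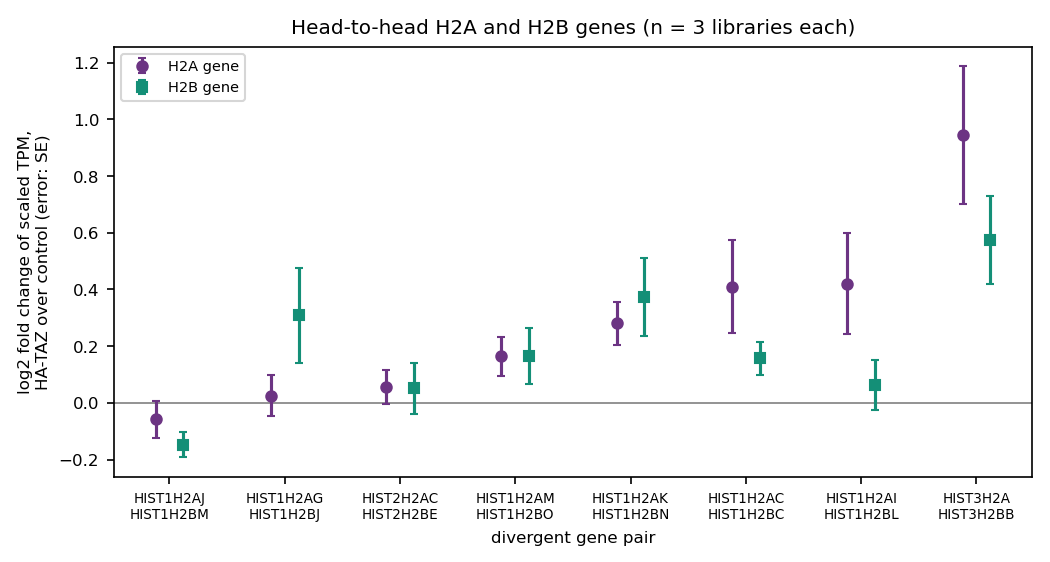
Scaled log2 fold change, HA-TAZ over control, of the H2A gene (circle) and the H2B gene (square) in the 8 head-to-head pairs with both genes tested, with SE, from 3 libraries a group. HIST3H2A and HIST3H2BB are the highest pair and HIST1H2AJ with HIST1H2BM the only pair below 0. With TPM as deposited, 3 pairs have both genes below 0.

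The 3 prime stem-loop was found in the GENCODE 29 models of 32 of 89 member genes. The search took only a fixed base pattern with a perfectly paired stem. Models of the other genes may end before the stem-loop or hold a form that the search did not allow. The 16 bases of the stem-loops found, in capitals as the strand of the gene, took 5 forms. These are listed because they are what marks these mRNAs, and the first form was found in 18 genes.
Form in 18 genes: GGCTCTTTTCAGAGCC
Form in 5 genes, HIST1H4H and HIST4H4 among them: GGCCCTTTTCAGGGCC
Form in 5 genes, HIST1H2BC and HIST1H2BD among them: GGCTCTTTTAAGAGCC
Form in 3 genes: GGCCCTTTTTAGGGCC
Form in 1 gene: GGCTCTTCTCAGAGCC

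Some members also have longer or spliced transcripts, and the share of each transcript in its gene does not depend on the library factor. In 13 genes with several transcripts, which have 14 IDs because HIST2H2BF is listed under a pair with the same values, 39 distinct transcripts were compared. The share was higher without overlap for 3 (7.69%) and lower for 5 (12.8%), against 7.26% and 8.08% of 125595 transcripts of all genes with several. In HIST1H4H and HIST1H2BK, which have 2 transcripts each, the lower share is the complement of the higher one. For HIST1H2BC the transcript with the stem-loop took 99.6 ± 0.142% of the gene in HA-TAZ and 99.5 ± 0.102% in control libraries (SD, n = 3 each). For HIST1H2BD it took 97.1 ± 0.152% and 96.6 ± 0.881%, and for HIST1H2BN 79.2 ± 1.15% and 78.5 ± 1.46% (SD, n = 3 each), with overlap in all 3 genes. In HIST1H2AC and HIST2H2BF the main listed transcript was a long form. No GENCODE 29 model of either gene was found to end shortly after the stem-loop. The shares of these genes therefore cannot show how much a short form contributes. HIST1H2AC transcript ENST00000377791.2, with 1114 bases after the stem-loop, took 98.0 ± 0.249% and 98.1 ± 0.265% (SD, n = 3 each, with overlap). HIST2H2BF transcript ENST00000369167.1, with 1479 bases after it, took 96.2 ± 0.276% and 96.1 ± 0.453% (SD, n = 3 each, with overlap). For HIST4H4 the unspliced transcript ENST00000539745.1, which has the stem-loop, took 84.9, 84.8 and 83.1% in HA-TAZ 1, 2 and 3 and 69.5, 79.5 and 81.8% in control a, b and c, higher without overlap and lowest in control a. For HIST1H4H, ENST00000289352.1 took 3.83, 3.80 and 3.94% in HA-TAZ and 2.60, 2.89 and 3.35% in control libraries, higher without overlap. For HIST1H2BK, ENST00000356950.1 took 17.6, 13.8 and 18.3% in HA-TAZ and 1.97, 13.6 and 12.1% in control libraries, where HA-TAZ 2 and control b nearly met.

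Near-identical copies made some members uncertain. Among the tested members, 22 IDs fell into 10 sets with the same 6 values, so 69 distinct profiles were tested. Over these profiles the median scaled log2 fold change was 0.23. An H2A copy listed as HIST2H2AA3 (ENSG00000272196) was at 236 TPM in control a, at 1.37e-06 TPM in control b and listed at 0 in the other 4 libraries, and its log2 fold change of −2.54 ± 2.10 (SE, limma, adjusted p = 0.452) rests on that library. The 4 IDs listed as HIST2H2AA3 or HIST2H2AA4 summed to 713, 691 and 734 TPM in HA-TAZ and to 738, 733 and 756 TPM in control libraries, so control a lay between the other controls when the copies were added. A pair of IDs listed by the authors as HIST1H4A (ENSG00000270276 and ENSG00000270882) are HIST2H4B and HIST2H4A in GENCODE 29, each at 457, 440 and 488 TPM in HA-TAZ and 432, 450 and 526 TPM in control libraries, with overlap.

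Statistics for 110 member transcripts stand in the authors' deposited table, with identical copies counted more than once, in 93 distinct sets of values. Of the 93, 8 (8.60%) had q under 0.05 with a positive effect, which is 7.27% of the 110, against 4.08% of all 109487 transcripts. None had a negative effect at that threshold, against 1.6% of all. The 8 transcripts belong to 8 genes, HIST1H4H, HIST1H4E, HIST1H2BH, HIST3H2A, HIST3H2BB, HIST1H3PS1, HIST1H2BN and HIST1H2BK. For HIST1H4H and HIST1H2BN it was a minor transcript. In HIST1H4H it took 3.86% of the gene in HA-TAZ and 2.94% in control libraries, and the main transcript had 0.0916 (sleuth Wald test, q = 0.352). In HIST1H2BN it took 20.4% and 21.0%, and the main transcript had 0.271 (sleuth Wald test, q = 0.173). The median effect in the authors' deposited table was 0.14 for the 110 member transcripts and −0.0025 for all, and of the 93 distinct sets 76 were positive and 17 negative.

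Genes that make, process and degrade histone mRNA were examined from lists made by their known roles. Over all genes limma called 4.67% higher and 2.63% lower with scaled TPM, and 1.15% and 13.5% as deposited. NPAT was at 18.7, 21.5 and 17.5 TPM in HA-TAZ 1, 2 and 3 and at 26.01, 24.9 and 23.7 TPM in control a, b and c. It was lower without overlap as deposited and overlapped with scaled TPM, and its log2 difference there was −0.07 ± 0.06 (SE, limma, adjusted p = 0.476). SLBP was at 70.5, 76.4 and 61.6 TPM in HA-TAZ against 106, 91.2 and 73.0 TPM in control libraries, with overlap, and its scaled log2 difference was −0.06 ± 0.11 (SE, limma, adjusted p = 0.738). Of 13 tested genes of histone gene transcription, limma called 1 higher with scaled TPM and 0 lower, with a median of 0.05. As deposited it called 0 higher and 4 lower, CASP8AP2, HINFP, POU2F1 and CCNE2, with a median of −0.24. The gene called with scaled TPM was CDC25A, the phosphatase that activates CDK2, at a scaled log2 fold change of 0.37 ± 0.07 (SE, limma, adjusted p = 0.0415).

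Of 13 tested genes of histone mRNA processing, 2 were called higher and 0 lower with scaled TPM, with a median of 0.13, and none was called as deposited, with a median of −0.14. Those called were ZNF473, the zinc finger protein of the U7 particle that binds the processing complex, at 0.47 ± 0.07 (SE, limma, adjusted p = 0.0307), and NELFE, a subunit of the negative elongation factor, at 0.27 ± 0.06 (adjusted p = 0.0492) but at −0.02 as deposited. Of 10 tested genes of histone mRNA decay and translation, 1 was called higher and 1 lower with scaled TPM, with a median of 0.07. As deposited 0 were called higher and 3 lower, ZCCHC6, ZCCHC11 and PARN, with a median of −0.23. Of all genes, 1.15% were called higher and 13.5% lower as deposited, and 4.67% and 2.63% with scaled TPM. LSM1, of the LSM ring that binds decaying mRNA ends, was at 0.34 ± 0.06 (SE, limma, adjusted p = 0.0397). ZCCHC11, a terminal uridylyltransferase, was at 13.3, 15.0 and 13.0 TPM in HA-TAZ against 25.8, 22.5 and 21.2 TPM in control libraries. It fell by 0.42 on the log2 scale with scaled TPM (SE 0.05, limma, adjusted p = 0.0173) and was called lower as deposited as well (−0.71, adjusted p = 0.0263).

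Among 18 tested histone chaperones, limma called the H3-H4 chaperone ASF1A (0.38 ± 0.05, SE, adjusted p = 0.0256) and SSRP1, a subunit of FACT (0.21 ± 0.04, adjusted p = 0.0461, but −0.09 as deposited), higher with scaled TPM and 0 lower. As deposited 0 were called higher and 2 lower, ASF1B and ATRX, with a median of −0.23 against 0.06 with scaled TPM. Of the listed histone variants whose symbols do not begin as those of the members, 9 were tested. With scaled TPM 1 was called higher (median 0.11), and as deposited 1, H2AFV, was called lower (median −0.14). The former, H3F3B, which encodes H3.3, was at 345, 368 and 353 TPM in HA-TAZ 1, 2 and 3 and at 344, 317 and 307 TPM in control a, b and c, where HA-TAZ 1 and control a were nearly level. With scaled TPM it rose by a log2 fold change of 0.44 ± 0.04 (SE, limma, adjusted p = 0.0094). As deposited it was at 0.14 (limma, adjusted p = 0.152). None of the 24 tested S phase genes, such as MCM2 and PCNA, was called by limma with scaled TPM, where their median was 0.09. At an unadjusted limma p under 0.05, 7 were higher and 1 lower, against 30.7% of all genes in either direction. As deposited 4 were called lower and 0 higher, with a median of −0.21. Over all genes limma called 4.67% higher and 2.63% lower with scaled TPM, and 1.15% and 13.5% as deposited. All genes of these lists called with scaled TPM, except ZCCHC11, missed the threshold as deposited.

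Other RNAs without a poly(A) tail, such as RN7SK, RMRP and the small nuclear RNAs, were listed because histone mRNA shares that property. Of 15 tested, 14 had a positive scaled log2 fold change, with a median of 0.52 with scaled TPM and 0.22 as deposited. Limma called 0 of them on either scale. With scaled TPM 8 were higher and 0 lower at an unadjusted limma p under 0.05, against 30.7% of all genes in either direction. The part of these RNAs in the histone values was not tested.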

How the data were processed

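The authors deposited TPM for 215170 transcripts in 6 libraries and a sleuth table of Wald tests with p-values, q-values, a natural log effect with its standard error (a score here) and a natural log mean of estimated counts, per the file headers. Reads were quantified with kallisto 0.46.0 and compared with sleuth 0.30.0 on GRCh37, per the submitters' processing notes. TPM sums to 1000000 in each library and carries no depth, so errors come from replicate spread. All 6 value columns were used. Transcript TPM was summed per gene ID. Factors per library were medians of ratios over 21512 genes with a mean of at least 1 TPM and above 0 in all libraries. The test was limma 3.58.1 (R 4.3.3) with a trend on log2(scaled TPM + 1), two-sided, over 22651 genes with a mean of at least 1 TPM, with p-values adjusted by Benjamini-Hochberg and called under 0.05, and the pseudocount of 1 understates changes of low genes. The test was also run on simulated data without library factors, so that run says nothing about the scaling. Member IDs were matched to GENCODE 29 by ID (56) or symbol (50) for type, stem-loops and words of 31 bases found in no other gene. Tables were joined with pandas 2.3.3 on Python 3.11.15 (numpy 2.4.6) and drawn with matplotlib 3.10.9. Named members are those called, the 2 of highest level in each family, the 5 with the largest and the 5 with the smallest fold change and the one at the filter. Other genes named are WWTR1, SLBP, NPAT and called genes of the lists. HIST3H2BB, HIST1H1A, HIST1H1T, the 7 members at 0, pair members and members named for their promoter windows were named after their values were seen. So were the HIST1H4H, HIST4H4, HIST1H2AC, HIST1H2BD, HIST1H2BN and HIST2H2BF transcripts. Members and lists were chosen with earlier results of these data known.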

Additional observations from a re-analysis of the deposited data

How the results depend on the processing

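With 3 libraries a group and no counts, precision rests on replicate spread. With TPM as deposited, 18 members were called (1 higher, 17 lower) against 2, with 3329 against 1652 of all genes and 14 against 8 genes of the regulator lists (list genes), and the member median was −0.087. Factors from protein-coding genes called 1 member higher and 2 lower. Without a filter on level, 1 member (1 higher), 691 genes and 4 list genes were called, and without the trend 1 member (1 higher), 758 genes and 3 list genes. With a mean of at least 5 TPM, 16 list genes, HIST1H2BK and HIST3H2A were called (limma, adjusted p = 0.0419 and 0.0459). Leaving out 1 library left 0 to 1 members called, all higher, 117 to 435 genes and 0 to 2 list genes, and a member median of 0.14 to 0.32. The HA-TAZ minus control difference in histone percent was −0.12 points of all TPM and 0.19 of protein-coding TPM. As deposited the sign turned for HIST1H1B (−0.25), HIST1H4H (−0.15), HIST1H2BC (−0.14), HIST1H4J (−0.14), HIST1H3G (−0.047), HIST1H3B (−0.021), HIST1H1C (−0.019), NELFE (−0.021) and SSRP1 (−0.092). It turned for HIST1H1B with protein-coding factors (−0.025) and without control a (−0.040, to 0.12 without control c), and for SLBP without HA-TAZ 3 (0.012) and without control a (0.0083, to −0.16 without control c). The cause was not tested. Of the other values for 31 named genes, 335 kept direction and call, 76 lost a call and 8 gained one. Factors from all genes above 0 and histone percent without pseudogenes were added after seeing the data and changed the call or direction of no named gene. Clusters by GENCODE 29 were also chosen after seeing the data. No paired analysis was possible because no control column could be matched to a particular wild type sample.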
